A study of Arabidopsis thaliana with 30 samples.

Results

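The 10 genes described here are regulators of the PIF and shade-avoidance pathway of Arabidopsis thaliana and were taken by locus code from the 32679 entries of the count tables. They are PIF4 (AT2G43010), PIF5 (AT3G59060), PIL1 (AT2G46970), HFR1 (AT1G02340), PAR1 (AT2G42870), ATHB2 (AT4G16780), ATHB4 (AT2G44910), HAT3 (AT3G60390), PKS1 (AT2G02950) and PKS2 (AT1G14280). The loci alone define the set, and all 10 of 10 passed the filter on low counts. RNA of shoots was sequenced in 30 libraries, 3 in each of 10 groups. Of the groups, 3 are named lines of the genotype EAR, EAR-13-068, EAR-15-025 and EAR-15-053, and 2 are named lines of the genotype VP16, VP16-02-003 and VP16-05-014. Their backgrounds are the EAR pool 13 background, the EAR pool 15 background, the VP16 pool 2 background and the VP16 pool 5 background, and the last group is Col-0, the common laboratory accession. The EAR motif represses transcription in plants and VP16 is a viral activation domain, and the series title speaks of interrogating the genome to enhance growth. The middle number of a line's name was taken as its pool, so that both EAR-15 lines share 1 pool. The sequences that the fusions target, the promoter that drives them, whether a line is 1 clone and the age of the plants are not given in the sources used here.

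PIFs are bHLH transcription factors that bind G-box and related elements and drive elongation growth. Light-activated phytochrome marks them for degradation, and shade, which turns phytochrome inactive, lets them accumulate. They then raise a set of early genes, among them the bHLH gene PIL1, the class II HD-Zip genes ATHB2, ATHB4 and HAT3, auxin synthesis genes of the YUCCA family, and the HLH proteins HFR1 and PAR1, which act as brakes on the same response. PIF4 and PIF5 are also under the control of the circadian clock. PKS1 and PKS2 are phytochrome kinase substrates, proteins of phytochrome and phototropin signalling.

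Promoter sequence was read from the RefSeq copy of TAIR10.1 to show which of the genes carry the letters that PIFs are known to bind. The 2000 bases before each annotated gene start were searched on both strands for the G-box CACGTG and for the PBE-box CACATG, whose other strand reads CATGTG. The 2 motifs differ in 1 letter, and the bases of a G-box cannot overlap those of a PBE-box. A G-box stood in 5 of the 10 genes, PIF5, PIL1, HFR1, PAR1 and ATHB4, and in 23.8% of 27440 protein-coding genes. A PBE-box stood in 5, PIF4, HFR1, PAR1, HAT3 and PKS2, and in 61.0% of all. One or the other stood in 8 of 10 and in 69.6% of all, and ATHB2 and PKS1 had neither in this window. The windows below are those of PIL1, HFR1 and ATHB4, the 3 members of lowest level, and of PIF5, 1 of the PIFs itself. Each runs 5′ to 3′ on the strand of its gene with the G-box in capitals.
PIL1, chr2:19299055-19299100, minus strand: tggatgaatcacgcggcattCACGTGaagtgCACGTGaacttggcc
PIL1, chr2:19298926-19298971, minus strand: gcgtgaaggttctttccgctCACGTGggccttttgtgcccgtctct
HFR1, chr1:469274-469319, minus strand: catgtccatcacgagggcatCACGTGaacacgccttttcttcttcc
HFR1, chr1:468855-468900, minus strand: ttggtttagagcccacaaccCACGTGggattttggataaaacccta
ATHB4, chr2:18521562-18521607, minus strand: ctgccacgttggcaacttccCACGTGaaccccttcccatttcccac
ATHB4, chr2:18521539-18521584, minus strand: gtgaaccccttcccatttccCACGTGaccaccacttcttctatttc
PIF5, chr3:21830977-21831022, minus strand: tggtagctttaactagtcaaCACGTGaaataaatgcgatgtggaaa
The first PIL1 window holds 2 G-boxes that are 5 bases apart, and its first one starts 1222 bases before the gene. The G-boxes of ATHB4 start 1856 and 1833 bases before the gene, those of HFR1 1419 and 1000 bases before it, and that of PIF5 165 bases before it. A match of letters is a description of the sequence and no evidence of binding.

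Depth ran between 10076308 and 40780331 reads on genes in a library, with a median of 19024898. The labels do not say that the 3 libraries of a group, lettered A, B and C, came from separate plants. The p-values set differences between groups against the spread of these samples, and that spread may be technical. The 4 leaf markers summed to between 33100 and 51560 CPM in a library, whereas 5 root markers summed to between 0.142 and 0.748 CPM, 3 flower markers to between 0.0666 and 0.900 CPM, and 1 seed marker had at most 0.233 CPM. In earlier work on these data 5 libraries stood apart from the rest of their groups, C of VP16-05-014, C of the VP16 pool 2 background, A of EAR-15-025, and C of EAR-15-053 and of EAR-13-068. The widest gap was that of VP16-05-014 C, whose chi-square per degree of freedom over all genes was 49.28 against library A and 59.39 against library B, where A and B gave 7.21. In shoots sequenced in bulk, fewer cells of a type and less RNA per cell cannot be told apart.

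The 10 genes spanned a wide range of levels. Per length, the PIFs were the most abundant, with a median over the 30 libraries of 81.4 TPM for PIF5 and 73.2 TPM for PIF4. ATHB2 followed with 37.1 TPM, PKS2 with 29.1 and HAT3 with 18.8 TPM. PKS1 had a median of 7.29 TPM, PAR1 7.08, ATHB4 2.41, HFR1 1.65 and PIL1 1.46 TPM. The low end rests on few reads, with 1038 reads of HFR1 in all libraries together and 5 reads of PIL1 in its lowest library, against 89843 reads of PIF5 in all. PKS1 overlaps AT2G04465 on the other strand, and since the sources used here do not give the use of strand in counting, its reads may include those of its neighbour. The other 9 genes overlap no annotated gene. In TAIR10.1 the PIFs lie at chr2:17886101-17889087 (PIF4) and chr3:21827905-21830837 (PIF5), and the PKS genes at chr2:854077-856725 (PKS1) and chr1:4877506-4879307 (PKS2). PIL1 lies at chr2:19295431-19297858, HFR1 at chr1:465616-467880 and PAR1 at chr2:17836416-17837618. The HD-Zip II genes lie at chr4:9449114-9450905 (ATHB2), chr2:18517656-18519731 (ATHB4) and chr3:22320580-22322661 (HAT3).

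Spread between groups was uneven as well. The highest group mean over the lowest was 1.45 for PIF4 and 1.5 for PIF5, and it was 1.36 for HAT3 and 1.34 for PKS1. It was between 2.85 and 3.81 for HFR1, ATHB2, PKS2, PIL1 and PAR1, and 5.96 for ATHB4. Asked whether any of the 10 groups differed, edgeR's quasi-likelihood test called 7 of the 10 genes at an adjusted p under 0.05, beside a background of 35.8% of the 19566 genes tested. The adjusted p was 8.8e-06 for PKS2, 0.000701 for PIF4, 0.000996 for ATHB4, 0.00397 for PIF5, 0.0204 for PAR1, 0.0408 for ATHB2 and 0.0461 for PIL1. HFR1, HAT3 and PKS1 were not called, with adjusted p of 0.389, 0.555 and 0.287. Without VP16-05-014 C 8 genes were called beside 50.9%, HAT3 among them (adjusted p = 0.0106). Without the 5 libraries that stood apart 9 were called beside 58.6%, with HFR1 (adjusted p = 0.00418) and HAT3 (adjusted p = 0.0246) added. The calls of PIL1 and ATHB2 were the least firm. With the replicate letter as a block both were lost, at an adjusted p of 0.0646 and 0.0599. PIL1 kept its call only when the library left out was EAR-15-025 A, EAR-15-053 C, EAR pool 15 background A, Col-0 A or any of VP16-05-014, and without each of the other 23 its adjusted p lay between 0.0515 and 0.0937. ATHB2 lost its call in 20 such fits, with adjusted p between 0.0544 and 0.0919, and kept it without EAR-15-053 C, EAR pool 13 background A, EAR pool 15 background A, VP16 pool 2 background A or C, VP16 pool 5 background C, Col-0 A or any of VP16-05-014. For PAR1 the adjusted p was 0.0518 without library B of EAR-13-068 and 0.0575 without library C of VP16-02-003, and both end its call.

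**Figure D1:**
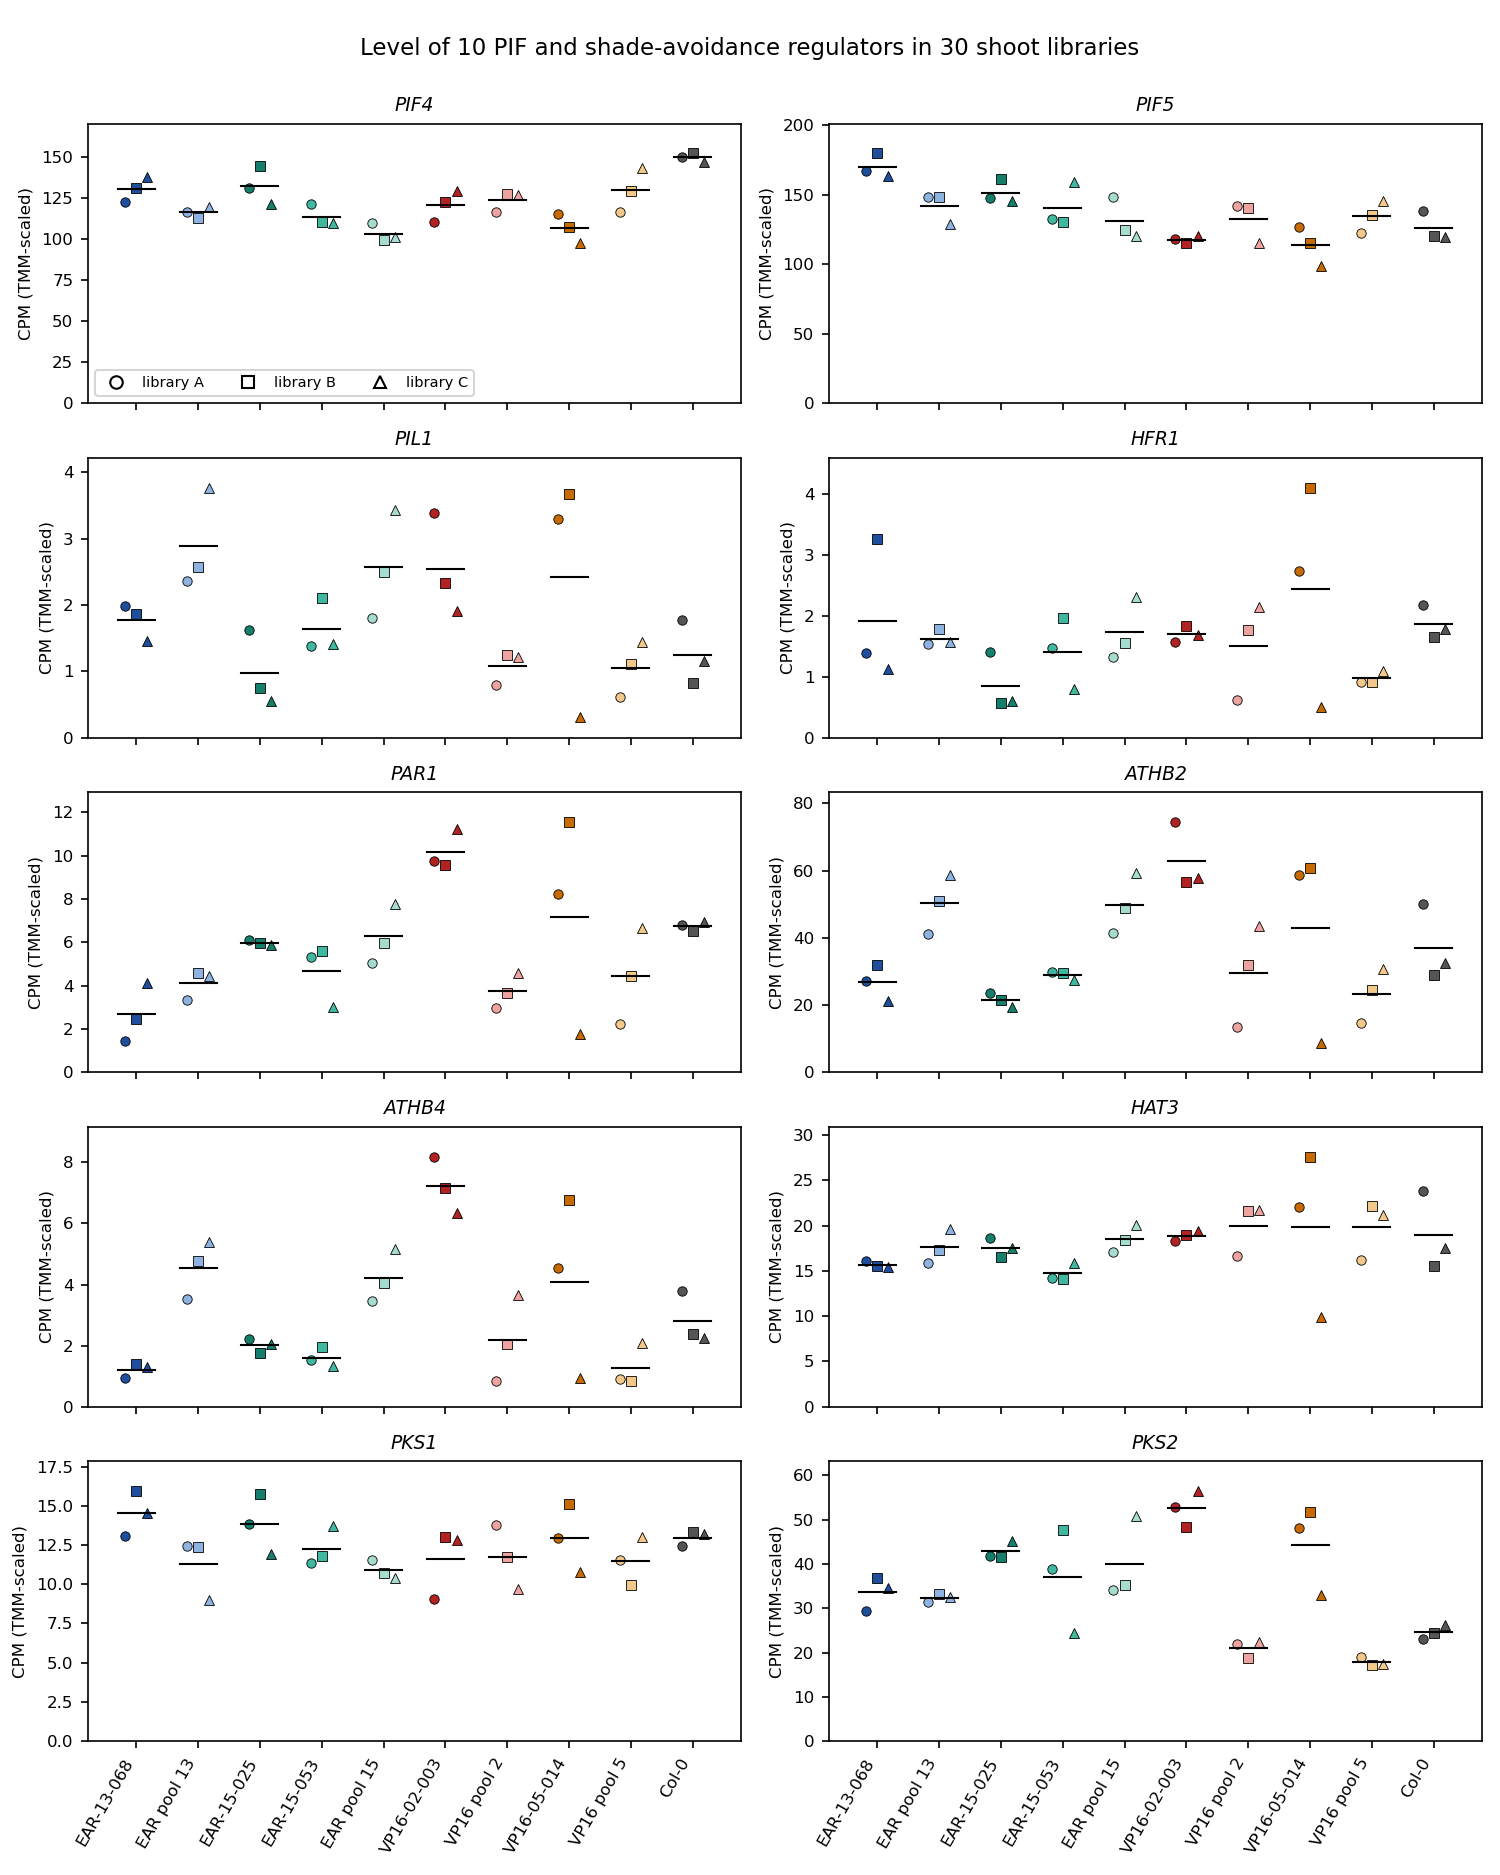
CPM (reads on a gene scaled to the library's depth with TMM, linear axes from 0) of the 10 genes in 30 libraries, with symbols for libraries A, B and C and a bar for each group mean. Col-0 holds the 3 highest PIF4 libraries, and the triangle of VP16-05-014 lies at the bottom for PIL1, HFR1, ATHB2 and HAT3.

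The order of the groups differed from gene to gene. PIF4 was lowest in the EAR pool 15 background (103 ± 5.54 CPM, SD, n = 3) and highest in Col-0 (149.5 ± 2.71 CPM), and of the neighbours in its order only Col-0 and the next, EAR-15-025, had ranges that did not overlap. PIF5 was highest in EAR-13-068 (170.1 ± 8.46 CPM), clear of the next, and lowest in VP16-05-014 (114 ± 14.3 CPM). VP16-02-003 held the highest mean of PAR1, ATHB2, ATHB4 and PKS2. For ATHB4 its range (7.23 ± 0.924 CPM) was clear of the next, the EAR pool 13 background (4.55 ± 0.958 CPM), with EAR-13-068 at the low end (1.21 ± 0.241 CPM). For PKS2 the means ran between 52.5 ± 4.07 CPM in VP16-02-003 and 17.8 ± 1.01 CPM in the VP16 pool 5 background, and in this order the ranges of the EAR pool 13 background, Col-0 and the VP16 pool 2 background did not overlap, whereas those of the 2 VP16 pools did. PAR1 ran between 10.2 ± 0.909 CPM in VP16-02-003 and 2.67 ± 1.34 CPM in EAR-13-068, and ATHB2 between 63.0 ± 9.90 CPM in VP16-02-003 and 21.4 ± 2.03 CPM in EAR-15-025. All neighbours overlapped in the order of PIL1, which ran between 0.974 ± 0.566 CPM in EAR-15-025 and 2.90 ± 0.758 CPM in the EAR pool 13 background, and in that of HFR1, which ran between 2.45 ± 1.82 CPM in VP16-05-014 and 0.858 ± 0.471 CPM in EAR-15-025. HAT3 was lowest in EAR-15-053 (14.1 to 15.8 CPM) and highest in the VP16 pool 2 background (16.7 to 21.7 CPM), and PKS1 ran between 14.5 ± 1.42 CPM in EAR-13-068 and 10.9 ± 0.587 CPM in the EAR pool 15 background.

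VP16-02-003 was compared with the VP16 pool 2 background to see how the named line differs from its pool. PKS2, ATHB4 and PAR1 rose in the line, in edgeR's quasi-likelihood test, and neither PIF4 nor PIF5 passed the test. These 3 of 10 genes, all higher, stand beside a background of 29.1% of all genes called and 15.3% called higher. The share of members called was thus near that of all genes. Of the calls 52.5% were higher, and 64.3% with scaling by library size alone. PKS2, the phytochrome kinase substrate, had 52.8, 48.3 and 56.5 CPM in libraries A, B and C of the line, against 21.9, 18.7 and 22.3 CPM in the pool, a log2 fold change of 1.33 (standard error 0.18, adjusted p = 2.3e-05). The groups were far apart, and the pool lay below Col-0. ATHB4, an HD-Zip II factor, had 8.19, 7.16 and 6.34 CPM in the line, against 0.833, 2.06 and 3.65 CPM in the pool, a log2 fold change of 1.77 (standard error 0.43, adjusted p = 0.00409). Every library of the line was above every library of the pool, whose library C was the highest of its group. PAR1, the HLH brake, had 9.76, 9.57 and 11.2 CPM in the line, against 2.98, 3.64 and 4.57 CPM in the pool, a log2 fold change of 1.46 (standard error 0.40, adjusted p = 0.00948). These 3 calls held in all 13 alternatives.

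ATHB2 and PIL1 lay just outside the threshold in the same comparison. ATHB2, the classic marker of the shade response, had 74.4, 56.7 and 57.8 CPM in VP16-02-003, against 13.5, 31.9 and 43.4 CPM in the VP16 pool 2 background, a log2 fold change of 1.09 (standard error 0.42, adjusted p = 0.0532). PIL1, a bHLH gene induced quickly by shade, had 3.38, 2.34 and 1.91 CPM in the line, against 0.798, 1.24 and 1.22 CPM in the pool, a log2 fold change of 1.22 (standard error 0.48, adjusted p = 0.0571). For both genes the line and the pool did not overlap. That was so for 5 of the 10 genes in all, near the share of 44.9% among all genes tested. Of all genes tested 29.1% were called. Without the 5 libraries that stood apart, 1 of them library C of this pool, 6 genes were called beside a background of 37.6%, and the log2 fold changes were 1.45 for ATHB2 (adjusted p = 0.000550), 1.28 for PIL1 (adjusted p = 0.00666) and -0.27 for PIF5 (adjusted p = 0.0258). The other members were HFR1 at 0.19 (standard error 0.51, adjusted p = 0.810), HAT3 at -0.08, PKS1 at -0.02, PIF4 at -0.03 and PIF5 at -0.17. The median log2 fold change was 0.64 over the 10 genes and 0.01 over all genes.

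Around the 10 genes, the outputs of the pathway were the list with the most calls in VP16-02-003. Of 9 auxin and growth output genes 7 rose and none fell against the VP16 pool 2 background, with a list median of 1.37 on the log2 scale, and the largest change was that of YUC9, an auxin synthesis enzyme, at 3.49. Of 9 genes of photoreceptors and phyA import 3 rose, led by PHYA, the far-red receptor, at 1.11, and of 11 genes of COP1, SPA, HY5 and BBX 4 fell, led by SPA1, a repressor of light signalling, at -0.82. Other HD-Zip II genes had 1 of 6 higher, HAT2 at 0.65, other PIFs 1 of 5 higher, PIF6 at 0.83, and the HLH cofactors 1 higher and 1 lower of 6 tested, PRE2 at -1.11. Among the DELLA genes, which encode growth repressors that bind PIFs, 2 of 5 rose and 1 fell, RGL3 at -1.65. The clock genes of the morning had 1 of 4 higher, LHY at 1.47, and those of the evening 3 of 5 lower, led by ELF4 at -1.98. None of the 2 other PKS genes was called. These counts stand beside 29.1% of all genes called, and the shares of the photoreceptors, 3 of 9, and of the COP1, SPA, HY5 and BBX genes, 4 of 11, were near it. The part of the clock genes in the members' differences was not tested. The log2 values of PIF6, and further on of BBX25, FKF1 and XTH15, come from genes that overlap another annotated gene, with which reads may be shared.

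VP16-05-014 was compared with the VP16 pool 5 background in the same way. PKS2 rose, as the only 1 of the 10 genes called, beside a background of 1.5%. It had 48.1, 51.6 and 32.9 CPM in libraries A, B and C of the line, against 19.0, 17.2 and 17.3 CPM in the pool, a log2 fold change of 1.31 (standard error 0.19, adjusted p = 0.00519) in edgeR's quasi-likelihood test. The 2 groups did not overlap, although library C of the line was well below A and B. The call was lost when these 2 groups were fitted alone (adjusted p = 0.168). PIF4 had 115, 108 and 97.5 CPM in the line, against 116, 129 and 143 CPM in the pool, without overlap and just outside the threshold at a log2 fold change of -0.28 (standard error 0.08, adjusted p = 0.0746). PIF5 stood at -0.25 (standard error 0.10, adjusted p = 0.195), and PKS1 and HAT3 at 0.15 and -0.01.

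In the response genes of this line, library C stood against libraries A and B. ATHB4 had 4.54, 6.75 and 0.947 CPM in VP16-05-014, against 0.915, 0.831 and 2.09 CPM in the VP16 pool 5 background, a log2 fold change of 1.46 (standard error 0.50, adjusted p = 0.112). ATHB2 had 58.8, 60.9 and 8.77 CPM in the line, against 14.7, 24.6 and 30.9 CPM in the pool, a log2 fold change of 0.85 (standard error 0.43, adjusted p = 0.282). In both genes libraries A and B of the line were above every library of the pool, and library C was near or below the lowest of the pool. HFR1, which pairs with PIFs and blocks their binding, had 2.74, 4.10 and 0.505 CPM in the line, against 0.915, 0.924 and 1.1 CPM in the pool, a log2 fold change of 1.23 (standard error 0.55, adjusted p = 0.214). PIL1 had 3.29, 3.68 and 0.316 CPM in the line, against 0.610, 1.11 and 1.44 CPM in the pool, a log2 fold change of 1.06 (standard error 0.52, adjusted p = 0.260). PAR1 had 8.22, 11.5 and 1.77 CPM in the line, against 2.21, 4.43 and 6.66 CPM in the pool, a log2 fold change of 0.59 (standard error 0.42, adjusted p = 0.445). The same split ran through all 3, with A and B high and C the lowest of the 6 libraries.

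Library C of VP16-05-014 was the lowest of all 30 libraries for 6 of the 10 genes, PIF4, PIF5, PIL1, HFR1, ATHB2 and HAT3. The other genes that set it apart were not all of this pathway. YUC8, an auxin synthesis enzyme, had 3.92, 5.81 and 0.505 CPM and the auxin response gene IAA29 19.6, 30.8 and 2.21 CPM in libraries A, B and C, and the evening clock gene GI had 39.7, 43.7 and 105.7 CPM. The morning gene CCA1 was close in all 3, at 36.3, 36.0 and 42.6 CPM. Plastid genes took 0.564, 1.287 and 0.147% of reads, beside a median of 0.172% over the 30 libraries. Reads on no feature made up 1.242, 1.94 and 0.838%, beside a median of 0.917%. By these 2 measures C was near the median, A was above it, and B was the highest of all libraries. The part of these differences in the members' values was not tested. Without library C, 6 of the 10 genes were higher in the line, beside a background of 25.7%. The log2 fold change was then 1.95 (standard error 0.41, adjusted p = 0.00186) for ATHB4, 1.32 (standard error 0.32, adjusted p = 0.00445) for ATHB2 and 1.48 (standard error 0.18, adjusted p = 3.05e-05) for PKS2. It was 1.75 (standard error 0.47, adjusted p = 0.00941) for HFR1, 1.61 (standard error 0.39, adjusted p = 0.00448) for PIL1 and 1.06 (standard error 0.33, adjusted p = 0.0200) for PAR1. PIF4, at -0.23 (standard error 0.09, adjusted p = 0.0621), was not called. With 2 libraries left in the line, A and B, these values assume that the 2 vary like the other groups.

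**Figure D2:**
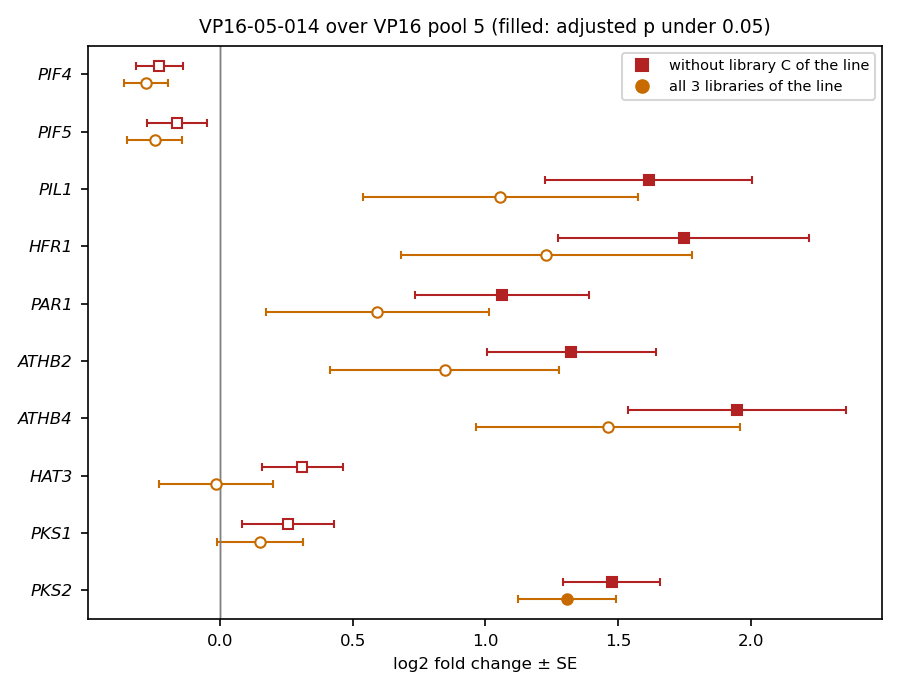
Log2 fold change with its SE of the 10 genes in VP16-05-014 over the VP16 pool 5 background, with all 3 libraries of the line (circles) and without its library C (squares), filled where the adjusted p is under 0.05. One gene is filled with all libraries and 6 without library C.

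The lists around the pathway had few calls with all libraries of VP16-05-014. Auxin and growth outputs had 2 of 9 higher and none lower, YUC2 at 1.22, with a list median of 0.88 beside 0.00 over all genes. Other PIFs had 1 of 5 lower, PIF3 at -0.46, other HD-Zip II genes 1 of 6 higher, HAT2 at 0.89, and DELLA genes 1 of 5 higher, GAI at 0.88. The HLH cofactors, the PKS genes, the photoreceptors, the COP1, SPA, HY5 and BBX genes and both clock lists had no call. Of all genes, 1.5% were called here. The difference between the effects of the 2 VP16 lines was tested as well, and none of the 10 genes passed edgeR's quasi-likelihood test, beside a background of 1.83%. One gene, PIF4, had an unadjusted p under 0.05. The difference of log2 fold changes, VP16-02-003 minus VP16-05-014, lay between -1.04 and 0.87 over the 10 genes and was 0.02 for PKS2 (SE 0.26). DESeq2 called none either. The lack of a call does not show that the effects were equal.

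The 3 EAR lines were compared with their pools to ask the same of the repressor genotype, and none of the 10 genes passed the test in any line. EAR-13-068 against the EAR pool 13 background had 0 of 10 genes called in edgeR's quasi-likelihood test, beside a background of 0.235%, 4 had an unadjusted p under 0.05, and DESeq2 called 1. EAR-15-025 against the EAR pool 15 background had 0 called beside 0.0511%, 5 had an unadjusted p under 0.05, and DESeq2 called 1. EAR-15-053 against the same pool had 0 called beside 0.00511%, 1 had an unadjusted p under 0.05, and DESeq2 called none. No gene of any of the lists around the pathway was called in these 3 comparisons. The EAR-15 lines share their pool, so their values against it are not independent of each other.

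The HD-Zip II genes ATHB4 and ATHB2 were below the pools in every library of the 3 EAR lines, without passing edgeR's test over all libraries. ATHB4 had 0.941, 1.40 and 1.29 CPM in EAR-13-068, against 3.51, 4.75 and 5.39 CPM in the EAR pool 13 background, a log2 fold change of -1.91 (standard error 0.45, adjusted p = 0.0687). DESeq2 called it, at -1.90 (adjusted p = 0.0137). So did edgeR without the 5 libraries that stood apart, at -1.94 (standard error 0.35, adjusted p = 0.00660). In that edgeR fit 430 of 19682 genes were called, beside 46 of 19566 with all libraries. ATHB4 had 2.21, 1.75 and 2.05 CPM in EAR-15-025 and, in EAR-15-053, 1.53, 1.97 and 1.33 CPM, against 3.46, 4.05 and 5.15 CPM in the EAR pool 15 background, with log2 fold changes of -1.07 (standard error 0.46, adjusted p = 0.493) and -1.40 (standard error 0.45, adjusted p = 0.705). ATHB2 had 27.2, 31.8 and 21.3 CPM in EAR-13-068, against 41.1, 51.0 and 58.7 CPM in the EAR pool 13 background, a log2 fold change of -0.91 (standard error 0.42, adjusted p = 0.427). For both genes no library of a line reached the lowest library of its pool. ATHB2 had 23.4, 21.4 and 19.4 CPM in EAR-15-025 and, in EAR-15-053, 29.9, 29.4 and 27.4 CPM, against 41.5, 48.9 and 59.2 CPM in the EAR pool 15 background, with log2 fold changes of -1.22 (standard error 0.43, adjusted p = 0.365) and -0.79 (standard error 0.42, adjusted p = 0.860). Here too the groups did not overlap.

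PIL1 was below its pool in every library of 2 of the 3 EAR lines, without passing the test. It had 1.99, 1.86 and 1.46 CPM in EAR-13-068, against 2.36, 2.57 and 3.76 CPM in the EAR pool 13 background, a log2 fold change of -0.68 (standard error 0.42, adjusted p = 0.586). It had 1.62, 0.752 and 0.554 CPM in EAR-15-025 and, in EAR-15-053, 1.38, 2.10 and 1.41 CPM, against 1.81, 2.49 and 3.44 CPM in the EAR pool 15 background, with log2 fold changes of -1.38 (standard error 0.50, adjusted p = 0.375) and -0.66 (standard error 0.45, adjusted p = 0.866). EAR-13-068 and EAR-15-025 did not overlap with their pools, and EAR-15-053 did. The PIFs were on the other side of their pools. PIF4 had 122, 131 and 138 CPM in EAR-13-068, against 116, 113 and 119 CPM in the EAR pool 13 background, a log2 fold change of 0.17 (standard error 0.08, adjusted p = 0.467). It had 131, 144 and 121 CPM in EAR-15-025 and, in EAR-15-053, 121, 110.1 and 109.8 CPM, against 109.5, 99.0 and 101 CPM in the EAR pool 15 background, with log2 fold changes of 0.36 (standard error 0.08, adjusted p = 0.133) and 0.14 (standard error 0.08, adjusted p = 0.862). PIF4 did not overlap in any of the 3, and DESeq2 called it in EAR-15-025, at 0.36 (adjusted p = 0.00233). PIF5 had 167, 179.7 and 164 CPM in EAR-13-068, against 148, 148 and 129 CPM in the EAR pool 13 background, without overlap and with a log2 fold change of 0.26 (standard error 0.10, adjusted p = 0.331). Its log2 fold change was 0.21 in EAR-15-025 and 0.10 in EAR-15-053.

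None of the brakes or PKS genes passed the test in the EAR lines. PAR1 had 1.46, 2.45 and 4.11 CPM in EAR-13-068, against 3.33, 4.57 and 4.46 CPM in the EAR pool 13 background, with overlap and with a log2 fold change of -0.67 (standard error 0.42, adjusted p = 0.597). It had log2 fold changes of -0.07 in EAR-15-025 and -0.44 in EAR-15-053. HFR1 lay at 0.28, -0.99 and -0.30 in EAR-13-068, EAR-15-025 and EAR-15-053, and HAT3 at -0.16, -0.08 and -0.33. PKS1 lay at 0.36, 0.35 and 0.18, and PKS2, called in both VP16 lines, at 0.06, 0.10 and -0.12. Over all 10 genes, 6 did not overlap between EAR-13-068 and its pool, where 23.6% of all genes did not overlap and 0.235% were called. Between EAR-15-025 and its pool 5 did not overlap, beside 18.7% of all genes not overlapping and 0.0511% called, and between EAR-15-053 and its pool 4, beside 13.3% and 0.00511%. The lines EAR-15-025 and EAR-15-053, which come by name from 1 pool, were also compared directly. None of the 10 genes was called in edgeR's quasi-likelihood test or by DESeq2, beside a background of 0.0153%, and 1 had an unadjusted p under 0.05. The log2 fold changes of EAR-15-025 over EAR-15-053 lay between -0.72 and 0.37.

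**Figure D3:**
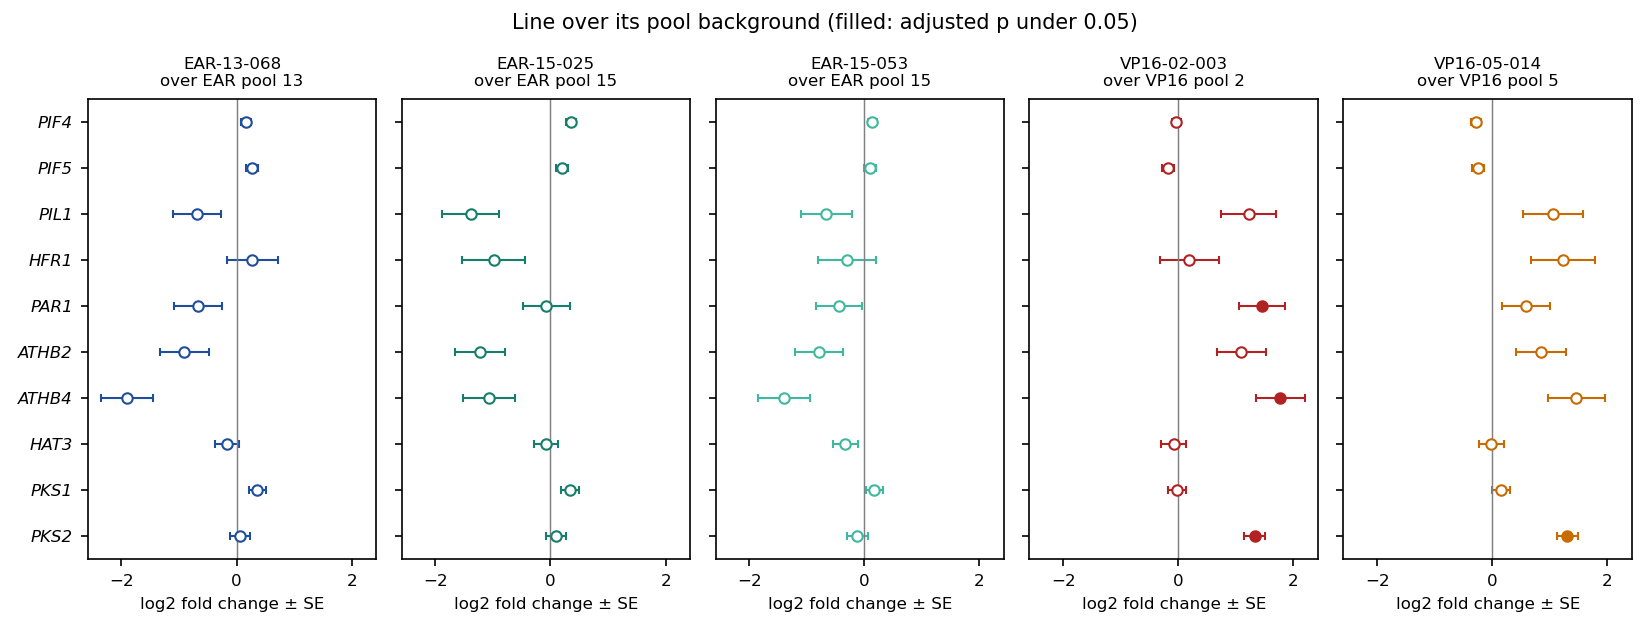
Log2 fold change with its SE of the 10 genes in each line over its pool background, filled where the adjusted p is under 0.05. PAR1, ATHB4 and PKS2 are filled in VP16-02-003 and PKS2 in VP16-05-014, and ATHB2 and ATHB4 lie left of 0 in the 3 EAR lines and right of it in the 2 VP16 lines.

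Whether a VP16 line and an EAR line differed in their effect over the pool was tested as a difference of log2 fold changes, VP16 line minus EAR line. These 6 contrasts were added after the values above had been seen. They share samples with each other and with the comparisons above. For VP16-02-003 minus EAR-13-068, 6 of 10 genes were called beside a background of 22.4%, for VP16-02-003 minus EAR-15-025 5 beside 16.7%, and for VP16-02-003 minus EAR-15-053 4 beside 16.2%. For VP16-05-014 minus EAR-13-068, 2 of 10 were called beside 1.19%, for VP16-05-014 minus EAR-15-025 2 beside 0.654%, and for VP16-05-014 minus EAR-15-053 1 beside 0.204%. Without library C of VP16-05-014, 7, 6 and 8 of 10 genes were called in its contrasts with EAR-13-068, EAR-15-025 and EAR-15-053, beside 21.6%, 14.4% and 19.2%. ATHB4 was then at 3.85, 3.00 and 3.34 in this order (adjusted p = 0.000178, 0.00143 and 0.000638 in edgeR's quasi-likelihood test). ATHB4 gave the widest differences with VP16-02-003, 3.68 (standard error 0.62, adjusted p = 0.000435), 2.84 (standard error 0.62, adjusted p = 0.00436) and 3.17 (standard error 0.62, adjusted p = 0.00229) against EAR-13-068, EAR-15-025 and EAR-15-053, and PKS2 was called in all 6 contrasts, all in edgeR's quasi-likelihood test. Each difference holds the levels of the pools as well as of the lines. PKS2 averaged 52.5 and 44.2 CPM in VP16-02-003 and VP16-05-014, and 33.7, 42.8 and 36.95 CPM in EAR-13-068, EAR-15-025 and EAR-15-053. It averaged 21.0 and 17.8 CPM in the VP16 pools 2 and 5, and 32.4 and 40.1 CPM in the EAR pools 13 and 15. The lower VP16 pools thus add to each PKS2 difference. ATHB4 averaged 2.18 and 1.28 CPM in the VP16 pools and 4.55 and 4.22 CPM in the EAR pools. All calls, with the libraries on which they rest, stand in the closing section.

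Pools and lines were next set against Col-0. All 9 comparisons share the same 3 Col-0 libraries, so they are not independent, and the values are given side by side. PIF4 was lower than in Col-0 in all 9 groups by its log2 fold change, which lay between -0.18 and -0.53, and it passed the test in 5. It had 116, 113 and 119 CPM in the EAR pool 13 background, 109.5, 99.0 and 101 CPM in the EAR pool 15 background, 116, 127 and 127 CPM in the VP16 pool 2 background and 116, 129 and 143 CPM in the VP16 pool 5 background, against 149.9, 152 and 147 CPM in Col-0. It had 110.1, 123 and 129 CPM in VP16-02-003, and the values of the other lines are given above. Col-0 held the 3 highest of the 30 libraries and spread least. By edgeR's quasi-likelihood test, the log2 fold change over Col-0 was -0.53 (standard error 0.08, adjusted p = 0.000354) in the EAR pool 15 background, -0.49 (standard error 0.08, adjusted p = 0.00551) in VP16-05-014 and -0.40 (standard error 0.08, adjusted p = 0.00395) in EAR-15-053. It was -0.36 (standard error 0.08, adjusted p = 0.00648) in the EAR pool 13 background and -0.31 (standard error 0.08, adjusted p = 0.00906) in VP16-02-003. The calls of both EAR pools and of EAR-15-053 held in all 13 alternatives, that of VP16-02-003 was lost without its library A, at -0.25 (adjusted p = 0.0595), and that of VP16-05-014 was lost when the 2 groups were fitted alone, at -0.49 (adjusted p = 0.419).

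PKS2 was higher than in Col-0 in 5 groups, 4 of them lines. It had 41.8, 41.5 and 45.1 CPM in EAR-15-025, in EAR-15-053 38.9, 47.6 and 24.3 CPM, and 34.1, 35.4 and 50.9 CPM in the EAR pool 15 background, against 23.1, 24.4 and 26.1 CPM in Col-0. It had 29.5, 36.9 and 34.6 CPM in EAR-13-068 and 31.4, 33.2 and 32.5 CPM in the EAR pool 13 background, which were above Col-0 without being called. Of the EAR libraries only EAR-15-053 C lay within the range of Col-0, whereas both VP16 pools lay wholly below it. The log2 fold change over Col-0 was 1.1 (standard error 0.18, adjusted p = 0.000171) in VP16-02-003, 0.85 (standard error 0.18, adjusted p = 0.0282) in VP16-05-014 and 0.80 (standard error 0.18, adjusted p = 0.00885) in EAR-15-025 in edgeR's quasi-likelihood test. It was 0.71 (standard error 0.18, adjusted p = 0.0189) in the EAR pool 15 background and 0.59 (standard error 0.18, adjusted p = 0.0368) in EAR-15-053. The calls of VP16-02-003 and EAR-15-025 held in all 13 alternatives.

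The other 3 calls of PKS2 over Col-0 rested on single libraries. In the EAR pool 15 background PKS2 was at 0.50 (adjusted p = 0.120) without library C of the pool, 0.64 (adjusted p = 0.0742) without Col-0 A and 0.69 (adjusted p = 0.0633) without Col-0 B. In EAR-15-053 it was at 0.55 (adjusted p = 0.105) without library A of the line and 0.36 (adjusted p = 0.238) without library B. Without Col-0 A, B or C it had there an adjusted p of 0.105, 0.108 and 0.0632, and 0.156 with the 2 groups alone. In VP16-05-014 PKS2 was at 0.78 (adjusted p = 0.0737) without library A of the line and 0.71 (adjusted p = 0.0965) without library B. Without Col-0 A, B or C the adjusted p was 0.0833, 0.108 and 0.0688, and 0.435 with the 2 groups alone.

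A further 3 calls over Col-0 fell on PIF5, PAR1 and ATHB4. PIF5 had 167, 179.7 and 164 CPM in EAR-13-068, against 138, 121 and 119.8 CPM in Col-0, without overlap and with a log2 fold change of 0.43 (standard error 0.10, adjusted p = 0.00959) in edgeR's quasi-likelihood test. It was at 0.38 (adjusted p = 0.0665) without library B of the line, 0.40 (adjusted p = 0.0579) without Col-0 B and 0.39 (adjusted p = 0.0605) without Col-0 C. PAR1 had 1.46, 2.45 and 4.11 CPM in EAR-13-068, against 6.82, 6.5 and 6.94 CPM in Col-0, with a log2 fold change of -1.39 (standard error 0.42, adjusted p = 0.0373). The line was lower in every library and its own libraries differed widely. PAR1 was at -1.08 (adjusted p = 0.208) without library A of the line and -1.36 (adjusted p = 0.128) without library B, and its adjusted p was 0.0725, 0.0767 and 0.0886 without Col-0 A, B or C. ATHB4 had 8.19, 7.16 and 6.34 CPM in VP16-02-003, against 3.80, 2.37 and 2.26 CPM in Col-0, without overlap and with a log2 fold change of 1.30 (standard error 0.43, adjusted p = 0.0300). Its adjusted p was 0.0844 without library A of the line, 0.0689 without library B, 0.0845 without Col-0 B and 0.106 without Col-0 C.

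Counted by group against Col-0, the members stood as follows beside all genes. The EAR pool 13 background had 1 of 10 called beside 8.71%, the EAR pool 15 background 2 beside 6.61%, and the VP16 pools 2 and 5 none by edgeR's test beside 0.0153% and 0.00511%. In the VP16 pool 2 background 2 genes had an unadjusted p under 0.05 and in the VP16 pool 5 background 3, and DESeq2 called none in either. EAR-13-068 had 2 called beside 9.29%, EAR-15-025 1 beside 4.34%, EAR-15-053 2 beside 10.8%, VP16-02-003 3 beside 23.2% and VP16-05-014 2 beside 0.526%. HFR1, HAT3, PKS1, PIL1 and ATHB2 passed the test against Col-0 in no group. Of these, PIL1 reached 1.07 (standard error 0.44, adjusted p = 0.136) in the EAR pool 13 background, where its libraries were all above those of Col-0, and ATHB2 reached -0.81 in EAR-15-025 (adjusted p = 0.327).

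**Figure D4:**
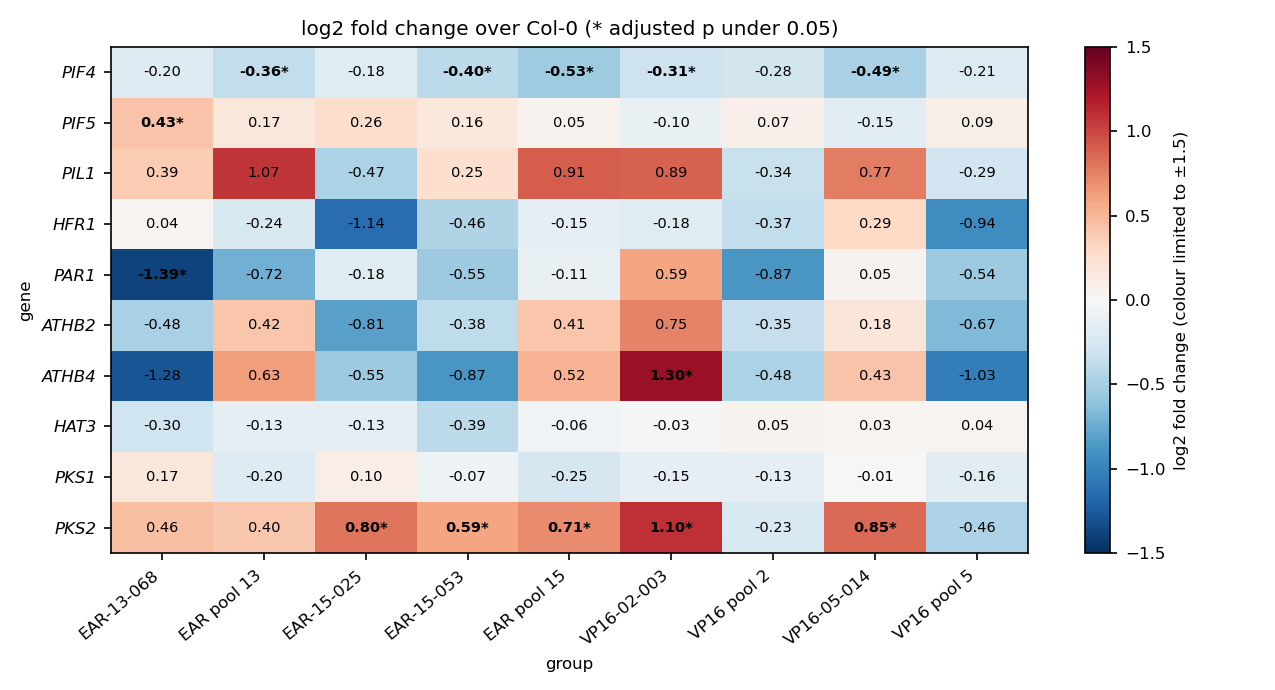
Log2 fold change over Col-0 of the 10 genes (rows) in 9 groups (columns), each line left of its pool, with a star where the adjusted p is under 0.05 and colour limited to ±1.5. The PIF4 row is negative throughout, and the PKS2 row is positive except in the 2 VP16 pools.

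Clock genes differed between the same groups. CCA1, a morning gene that represses evening genes, averaged 80.6, 52.4 and 63.0 CPM in EAR-13-068, EAR-15-025 and EAR-15-053, and 34.6 and 38.3 CPM in VP16-02-003 and VP16-05-014. It averaged 65.0 and 45.7 CPM in the EAR pools 13 and 15 and 31.3 and 33.1 CPM in the VP16 pools 2 and 5, against 22.0 CPM in Col-0. The evening gene FKF1 averaged 0.427, 0.784 and 1.64 CPM in these EAR lines, and 4.25 and 7.75 CPM in these VP16 lines, and in the pools, in the order given, 0.539, 2.11, 11.3 and 16.5 CPM, against 22.3 CPM in Col-0. So CCA1 was highest and FKF1 lowest in the EAR groups. All 5 evening genes were called lower than in Col-0 in each of the 5 EAR groups and 4 of 5 in VP16-02-003, and none in VP16-05-014 or the VP16 pools. Of the 4 morning genes, 2 were called higher in each EAR pool and each EAR-15 line, 4 in EAR-13-068, 1, LHY, in each VP16 line, and none in the VP16 pools. Their part in the values of PIF4, PIF5 and PKS2 over Col-0 was not tested.

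The other lists of the pathway had scattered calls over Col-0, to be read beside the shares of all genes called, from 0.00511% to 23.2%, given above by group. The largest called change was PIF8 in the EAR pool 13 background (0.94), in EAR-13-068 (1.48, with 3 of 5 other PIFs higher) and in EAR-15-053 (0.90), and PIF6 in VP16-02-003 (0.79). Of the 11 COP1, SPA, HY5 and BBX genes 5 were higher in EAR-13-068, led by BBX25 at 1.26. BBX25 was the largest in the EAR pool 13 background (0.93), EAR-15-025 (0.77) and EAR-15-053 (0.78) as well, each with 1 gene called. The red-light receptor PHYB was higher in the EAR pools 13 and 15 (0.32 and 0.33) and in VP16-02-003 (0.43, with 2 of 9 photoreceptor genes higher), and FHY1, which carries phyA into the nucleus, was lower in EAR-13-068 (-0.91). PKS4 was higher in EAR-15-025 (1.01). RGL3, a DELLA gene, was lower in both EAR pools (-0.94 and -1.06), EAR-15-053 (-1.22) and VP16-02-003 (-2.03, where 1 other DELLA gene was higher). PIN3, an auxin transporter, was higher in both EAR pools (0.47 and 0.58), EAR-13-068 (0.55) and EAR-15-025 (0.54). In VP16-02-003 the auxin and growth outputs had 5 of 9 higher and 1 lower, led by XTH15, a cell wall enzyme, at 3.17. HAT2 was higher there (0.82), and the HLH cofactors had 1 higher and 1 lower, PRE2 at -1.24.

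Library by library, ATHB2 and the other response genes varied together. Over the 30 libraries, on log2 CPM, Pearson's r of ATHB2 was 0.89 with ATHB4, 0.88 with PIL1, 0.76 with HFR1, 0.66 with PAR1 and 0.63 with HAT3. Within groups, on the deviations from the group means, it was 0.92, 0.9, 0.84, 0.77 and 0.91 in that order. Libraries of 1 group that were low in ATHB2 thus tended to be low in these genes. VP16-05-014 C added to this, and over the other 29 libraries the within-group r in the same order was 0.84, 0.73, 0.67, 0.45 and 0.76. Without the 2 libraries farthest from the median of ATHB2, the r over libraries was 0.90, 0.84, 0.66, 0.56 and 0.48, and Spearman's rho over all was 0.91, 0.82, 0.77, 0.64 and 0.58. The PIFs did not share this, with r of -0.08 between PIF4 and ATHB2 (0.45 within groups), -0.16 between PIF5 and ATHB2 (0.27 within groups) and 0.31 between PIF4 and PIF5. Over the 29 libraries without VP16-05-014 C, the r with ATHB2 was -0.31 for PIF4 and -0.47 for PIF5 (0.29 and -0.10 within groups). Without the 2 libraries farthest in ATHB2 it was -0.37 and -0.49, and Spearman's rho over all was -0.22 and -0.39. PKS1 and PKS2 had an r of 0.09. The values are a description of 45 pairs of genes, whose points share libraries, depth and scaling, and low counts add noise to PIL1 and HFR1.

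**Figure D5:**
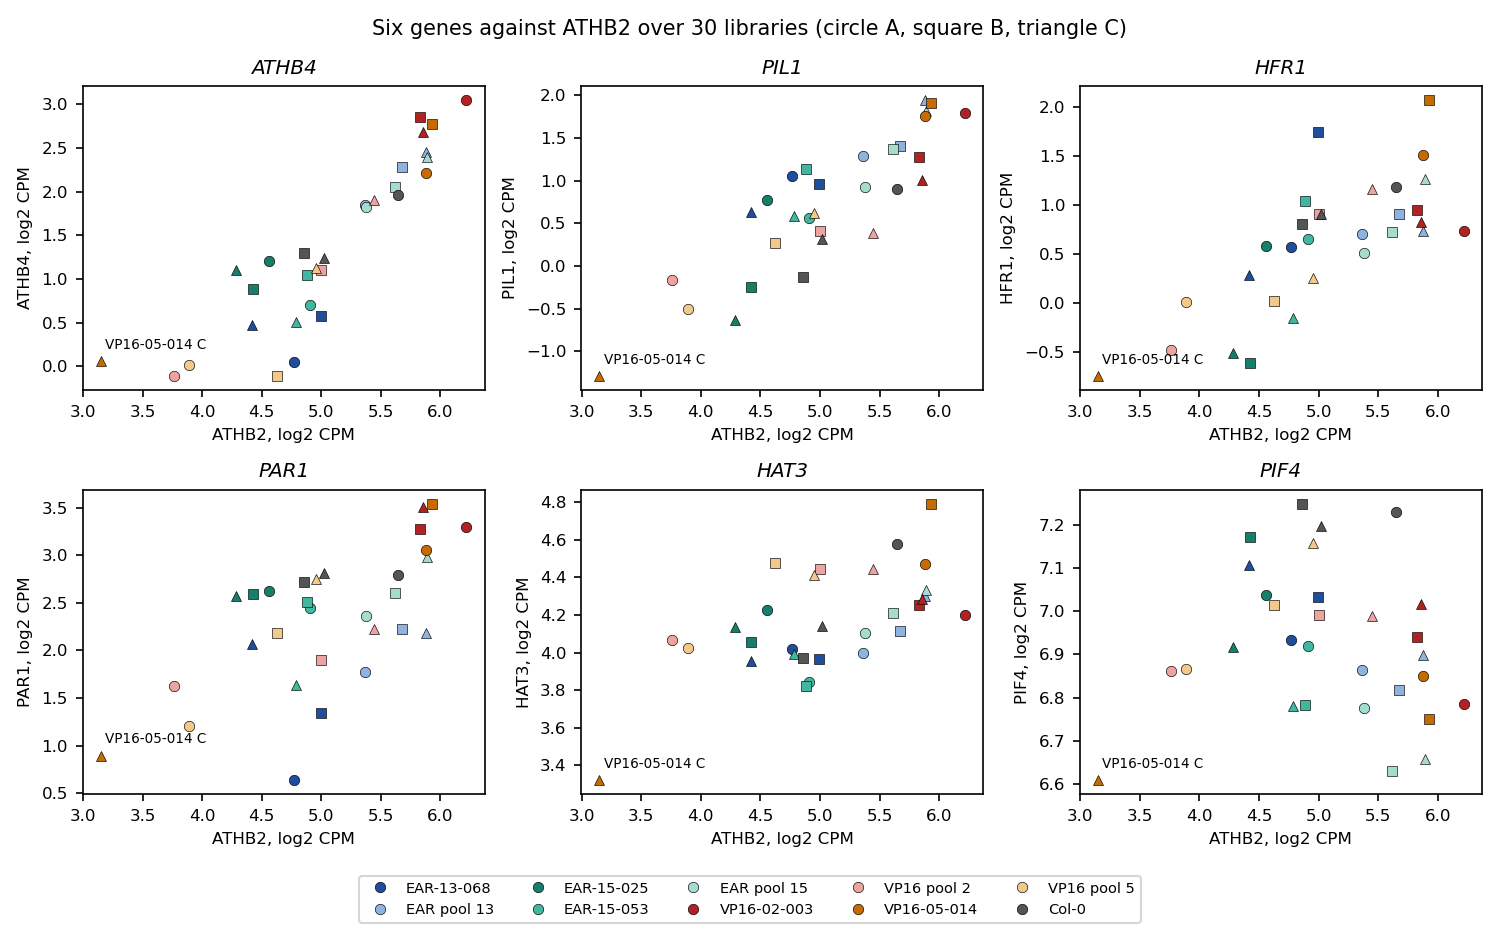
Log2 CPM of ATHB4, PIL1, HFR1, PAR1, HAT3 and PIF4 (y axes) against log2 CPM of ATHB2 (x axes) in 30 libraries, coloured by group. ATHB4 and PIL1 climb with ATHB2 (r of 0.89 and 0.88), PIF4 does not (r of -0.08), and VP16-05-014 C is at the lower left of each panel.

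Set against the clock genes in the same 30 libraries, the members differed. The r was 0.67 between PIF5 and CCA1 (0.54 within groups) and -0.61 between PIF5 and FKF1, -0.76 between PKS2 and GI (-0.22 within groups) and 0.59 between PAR1 and TOC1 (0.70 within groups). PKS2 and CCA1 had an r of 0.19, and -0.82 within groups, where EAR-15-053 C had the lowest PKS2 of its line, 24.3 CPM, and 101.6 CPM of CCA1 beside 48.1 and 39.2 CPM in A and B. ATHB2 and GI had -0.44, and -0.65 within groups. For PIF4 and CCA1 it was -0.30.

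By the highest Pearson's r of log2 CPM with each member over the 30 libraries, the genes most alike were often of the pathway itself for the response genes. ATHB2 was closest to YUC8 (0.936), ATHB4 (0.893) and PIL1 (0.883), and ATHB4 to YUC9 (0.921), ATHB2 (0.893) and FLP1 (0.842). PIL1 was closest to ATHB2 (0.883), AT4G28240 (0.833) and AT5G47430 (0.809), and HFR1 to ATHB2 (0.757), PIL1 (0.744) and AT3G14560 (0.724). PIF5 was closest to AT1G18010 (0.905), PIL5 (0.881), which is another name of PIF1, and HMA2 (0.874). PIF4 was closest to AT4G23870 (0.816), AT2G37950 (0.815) and AT1G73750 (0.813). For PAR1 the nearest were AT3G13340 (0.930), DYL1 (0.908) and BAK1 (0.907), for HAT3 PUB18 (0.765), WRKY22 (0.756) and AT1G03610 (0.745), and for PKS2 AT4G29310 (0.944), AT5G02760 (0.911) and ZFP8 (0.905). PKS1 had the loosest neighbours, AAH (0.652), AT2G25200 (0.626) and AT1G10150 (0.601). Nothing is read from this about shared function or control.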

How the data were processed

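The deposited values are whole-number read counts per gene, 1 table per library. The TAIR10 build, HTSeq and TopHat2 2.0.5 are named, without role or order, per the submitters' processing notes, and the use of strand in counting is not given in these sources. The 5 entries that name no gene were dropped: in a library, 0.765 to 1.94% of reads lay on no feature and 1.32 to 1.48% were ambiguous. With edgeR 4.0.16 (R 4.3.3), genes were kept by filterByExpr with a minimum count of 10 (19566 genes), TMM-scaled, and fitted by quasi-likelihood over all 30 libraries, so that all groups share 1 estimate of the spread (common biological coefficient of variation 0.13). Calls are those with an adjusted p (Benjamini-Hochberg, over every gene tested in the comparison) below 0.05. CPM is TMM-scaled, SE is the standard error of a log2 fold change, and log2 CPM for correlations used a prior count of 2. TPM used exon lengths of TAIR10.1, found for 31904 loci, which also gave names, coordinates and sequence, and its name differs from the authors' build. Counts were also simulated for the 30 libraries (19435 genes), with 1 spread (0.13) for every gene and no library standing apart. In VP16-02-003 over its pool, 93% of 100 genes changed by 1 on the log2 scale were called. Of 100 changed by 2, 100% were called, with 10 false among 203 calls in all. Genes of low expected count were not among those changed, and members such as PIL1 varied more between replicates. These shares therefore need not hold for the members. Replicates differed beyond sampling noise in every pair (chi-square per degree of freedom 3.54 to 59.39).

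The replicate letters recur in every group. Deviations of like-lettered libraries from their group means were correlated by more than 0.1 in every pair for 1 comparison, EAR pool 15 background over Col-0 (0.279, 0.207 and 0.15), so that letters may pair samples there, a reading that no label backs. The members and gene lists were chosen with earlier results of these data known. All 10 members are named with their values, and of each list with a call the called gene with the largest change. For each member, the 3 genes with the highest correlation are named. Alternatives were other scalings, no count filter, DESeq2 1.42.0, the compared groups alone, the letter as a block, fits without each library, and a fit without the 5 libraries that stood apart. The contrasts of VP16 lines minus EAR lines were added after the data were seen. Python 3.11.15 with matplotlib 3.10.9 drew the figures.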

Additional observations from a re-analysis of the deposited data

Results flagged for a closer look

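The effects of VP16 and EAR lines over their pools differed in edgeR's quasi-likelihood test in 20 cases, given here as the log2 fold change of the VP16 line minus that of the EAR line. Of all genes, 22.4%, 16.7% and 16.2% were called for VP16-02-003 minus EAR-13-068, EAR-15-025 and EAR-15-053. For VP16-05-014 minus the same lines the shares were 1.19%, 0.654% and 0.204%. The contrasts were added after the data were seen, they share samples, and the EAR-15 lines share a pool. Each difference holds the levels of both pools as well as of both lines, with the means of PKS2 given above. For VP16-02-003 minus EAR-13-068 the difference was 3.68 (standard error 0.62, adjusted p = 0.000435) in ATHB4, 2.13 (standard error 0.58, adjusted p = 0.0118) in PAR1 and 1.27 (standard error 0.25, adjusted p = 0.00137) in PKS2, which held in all 19 alternatives. ATHB2 was at 2.00 (standard error 0.59, adjusted p = 0.0192) and lost its call without EAR-13-068 C, at 1.82 (adjusted p = 0.0513). PIL1 was at 1.91 (standard error 0.64, adjusted p = 0.0336) and lost it without EAR-13-068 B or C, EAR pool 13 background C, VP16-02-003 A or B, or VP16 pool 2 background A or B, with values of 1.66 to 2.00 and adjusted p of 0.0547 to 0.0910. PIF5 was at -0.43 (standard error 0.15, adjusted p = 0.0372) and lost it without EAR-13-068 A or B, EAR pool 13 background C, any library of VP16-02-003, or VP16 pool 2 background A or B, with values of -0.45 to -0.37 and adjusted p of 0.0507 to 0.106.

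For VP16-02-003 minus EAR-15-025 the difference was 2.84 (standard error 0.62, adjusted p = 0.00436) in ATHB4, 2.61 (standard error 0.69, adjusted p = 0.0131) in PIL1, 2.31 (standard error 0.60, adjusted p = 0.0119) in ATHB2 and 1.23 (standard error 0.25, adjusted p = 0.00263) in PKS2, and these edgeR calls held in all 19 alternatives. PIF4 was at -0.39 (standard error 0.12, adjusted p = 0.0250) and lost its call without EAR pool 15 background B or C or VP16-02-003 A, with values of -0.37 to -0.33 and adjusted p of 0.0531 to 0.0692. For VP16-02-003 minus EAR-15-053, ATHB4 was at 3.17 (standard error 0.62, adjusted p = 0.00229) and PKS2 at 1.45 (standard error 0.25, adjusted p = 0.000957), both in all 19 alternatives. PAR1 was at 1.89 (standard error 0.57, adjusted p = 0.0260) and lost its call without EAR-15-053 C, EAR pool 15 background C, VP16-02-003 C, or VP16 pool 2 background A or B, with values of 1.65 to 1.84 and adjusted p of 0.0569 to 0.0790. ATHB2 was at 1.88 (standard error 0.60, adjusted p = 0.0340) and lost it without EAR-15-053 B or C, EAR pool 15 background B or C, any library of VP16-02-003, or VP16 pool 2 background A or B, with values of 1.53 to 1.95 and adjusted p of 0.0517 to 0.0802.

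With VP16-05-014, no edgeR call of a difference from an EAR line held in every alternative. Without its library C, 7, 6 and 8 of the 10 genes were called against EAR-13-068, EAR-15-025 and EAR-15-053, in place of 2, 2 and 1. The shares of all genes called were then 21.6%, 14.4% and 19.2%, in place of 1.19%, 0.654% and 0.204%. PKS2 was at 1.25 (standard error 0.25, adjusted p = 0.0223) against EAR-13-068 and lost its call without EAR pool 13 background C, VP16-05-014 B or VP16 pool 5 background B (values of 1.11 to 1.25, adjusted p of 0.0531 to 0.0747). Against EAR-15-025 PKS2 was at 1.21 (standard error 0.26, adjusted p = 0.0348) and lost it without EAR-15-025 A or B, EAR pool 15 background B or C, VP16-05-014 A or B, or VP16 pool 5 background B or C (values of 1.01 to 1.30, adjusted p of 0.0587 to 0.126). Against EAR-15-053 PKS2 was at 1.43 (standard error 0.26, adjusted p = 0.0298) and lost it without EAR-15-053 C, EAR pool 15 background C, VP16-05-014 A or B, or VP16 pool 5 background A or B (values of 1.20 to 1.46, adjusted p of 0.0530 to 0.0894). ATHB4 was at 3.37 (standard error 0.67, adjusted p = 0.0183) against EAR-13-068 and lost it without EAR pool 13 background C, VP16-05-014 B or VP16 pool 5 background B (values of 2.78 to 3.24, adjusted p of 0.0531 to 0.0849). PIF4 was at -0.64 (standard error 0.12, adjusted p = 0.0153) against EAR-15-025 and lost it without EAR-15-025 A or EAR pool 15 background B or C (values of -0.66 to -0.61, adjusted p of 0.0523 to 0.0644). The ranges above cover single libraries left out. With the compared groups fitted alone in edgeR, PKS2 had an adjusted p of 0.120 against EAR-15-025 and 0.496 against EAR-15-053. In the same setting ATHB4 had 0.110 against EAR-13-068 and PIF4 0.128 against EAR-15-025, so these calls were lost too.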

How the results depend on the processing

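No called value of the 10 genes changed direction under any alternative. The counts of genes called that moved by more than 1.5 times, or whose range did with each library left out, are given with the count of the report first. EAR-13-068 over its pool had 0, and 1 with library size alone, DESeq2, the 2 groups alone or without the 5 libraries that stood apart. Over all genes it had 46 called, and 430 without these libraries. EAR-15-025 over its pool had 0, and 1 with DESeq2 or the groups alone. VP16-02-003 over its pool had 3, and 5 with library size alone or the groups alone and 6 without the 5 libraries. Over all genes it had 5694 called, and 5655, 5516 and 7400 in these settings, in the same order. VP16-05-014 over its pool had 1, and 2 with library size alone, 3 with DESeq2, 0 with the groups alone, 6 without the 5 libraries, and 1 to 6 with each library left out in turn. Over all genes it had 293 called, and 229 with library size alone, 743 with DESeq2, 0 with the groups alone and 6274 without the 5 libraries. Without its library C alone, 25.7% of all genes were called. Over Col-0, the EAR pool 13 background had 1, and 4 with the groups alone or without the 5 libraries, the EAR pool 15 background 2, and 1 to 2 with each library left out, and the VP16 pools 2 and 5 had 0, and 2 and 1 without the 5 libraries. EAR-13-068 had 2, and 4 with either setting and 0 to 2 with each library left out, and EAR-15-025 1, and 2 with either. EAR-15-053 had 2, and 1 with the groups alone and 1 to 2 with each library left out. VP16-02-003 had 3, and 5 with either setting and 1 to 3 with each library left out, and VP16-05-014 2, and 0 with the groups alone and 1 to 3 with each library left out. Among all genes, calls over Col-0 without the 5 libraries were 3787 and 3580 in EAR pools 13 and 15. They were 2275 and 821 in VP16 pools 2 and 5. With all libraries these pools had 1705, 1293, 3 and 1. EAR-13-068, EAR-15-025, EAR-15-053 and VP16-02-003 had 4371, 2662, 4464 and 6991 without the 5 libraries. With all libraries these lines had 1818, 849, 2112 and 4531. The test over all groups had 7, and 9 without the 5 libraries and 4 to 8 with each library left out. Of all genes it called 35.8%, and 58.6% without the 5 libraries. Without the 5 libraries, EAR-15-053 and the EAR pool 15 background over Col-0 had 3 in place of 2, adding HAT3 at -0.47 (adjusted p = 0.0367) and PIL1 at 0.88 (adjusted p = 0.0489) in edgeR's test. With each library left out, VP16-02-003 minus EAR-13-068, EAR-15-025 and EAR-15-053 ran over 4 to 6, 4 to 6 and 2 to 5 called, and VP16-05-014 minus the same lines over 0 to 7, 0 to 6 and 0 to 8. VP16-02-003 minus EAR-15-025 had 5, and 8 without the 5 libraries. VP16-05-014 minus these lines had 2, 2 and 1, and 4, 4 and 3 with DESeq2, 1, 0 and 0 with the groups alone and 7, 6 and 8 without the 5 libraries. Of all genes, 1.19%, 0.654% and 0.204% were called with all libraries, and 21.6%, 14.4% and 19.2% without VP16-05-014 C alone. The causes were not tested. The settings with groups or libraries left out use fewer samples, and their calls over all genes moved as well. Scaling by library size alone shifted the median of all genes by up to 0.15 on the log2 scale, in VP16-02-003 minus EAR-13-068 and minus EAR-15-025, where PIF5 and PIF4 lost their calls.

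With the replicate letter as a block, the EAR pool 15 background over Col-0 still had 2 genes called, PIF4 at -0.53 (adjusted p = 0.000643) and PKS2 at 0.71 (adjusted p = 0.0257) in edgeR's quasi-likelihood test. The block left 5 of 7 genes called in the test over all groups, without PIL1 and ATHB2. No other comparison met the rule for a pairing. Depth limits PIL1, HFR1 and ATHB4, whose lowest libraries held 5, 8 and 9 reads, so that counting error is widest in them.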
